A study of Saccharomyces cerevisiae with 10 samples.

Results

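The loss of Rrp6 in *rpb1-84* cells of the yeast *Saccharomyces cerevisiae* is described here by RNA-Seq of 3′ ends. The libraries labelled *rpb1-84 rrp6∆* (2) were set against those labelled *rpb1-84* (2), chosen by their labels alone, which makes 4 of the 10 libraries of the study. All 10431 counted features were used. The *rpb1-84 rrp6∆* strain (YFN545) carries the *rpb1-84* mutant allele of *RPB1* on a LEU2 plasmid in place of the chromosomal gene (*rpb1-∆187::HIS3*) and the deletion *rrp6∆::KanMX4*. The *rpb1-84* strain (YFN519) carries the same plasmid and chromosomal allele, with *RRP6* present and with a TAP tag and the TRP1 marker on *RPB4*, which the double mutant lacks. For reference, the *rrp6∆* strain (YFN543) and its WT (YFN116) carry *RPB1* on the plasmid, with and without the same *RRP6* deletion. All 4 strains are MATα with *his3*, *leu2*, *trp1* and *ura3* marker alleles, and were grown as 2 independent cultures each in YPD at 30 °C to an OD600 of about 0.8. The *rpb1-84* libraries belong to another experiment than the other 6, so the loss of Rrp6, the *RPB4* tag and the experiment cannot be told apart in this comparison. The libraries of *rrp6∆* and WT come from a single experiment, differ only in *RRP6* by their labels, and share no library with the comparison described here.

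Rrp6 is an exonuclease of the nuclear exosome that degrades RNA from the 3′ end. It removes cryptic unstable transcripts (CUTs) and trims the precursors of small nuclear and nucleolar RNAs, the sn(o)RNAs, many of which end through the Nrd1-Nab3-Sen1 (NNS) termination complex. The TRAMP complex adds short poly(A) tails to such RNAs before the exosome acts on them. Stable unannotated transcripts (SUTs), Nrd1-unterminated transcripts (NUTs) and Xrn1-sensitive unstable transcripts (XUTs) are the other noncoding classes counted. The *rpb1-84* mutation lies in the foot of the largest subunit of RNA polymerase II and weakens the hold of the Rpb4/7 dimer on the enzyme. The sequencing kit primes from poly(A), so a count on a sn(o)RNA row is of polyadenylated ends and does not separate precursors from mature RNA.

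The *rpb1-84 rrp6∆* libraries held 5487358 and 4300462 counts, against 3574066 and 7268211 in the *rpb1-84* libraries. Replicate cultures correlated across features with r of 0.990 in *rpb1-84 rrp6∆* and 0.986 in *rpb1-84* (log2 of normalized CPM, the counts scaled to library size; features are not independent replicates), and differed by more than counting error, with a chi-square per feature of 2.61 and 5.01. Some rows count the same reads: 76 rows with at least 100 counts had counts identical to another row in the 8 libraries of the 4 strains, 33 of them NUTs and 25 CUTs. A row is called higher or lower where the absolute log2 fold change exceeded 1 and the adjusted p was below 0.1 in edgeR's quasi-likelihood test, fitted over the 8 libraries. Of the 9264 features with enough counts to be tested, 2978 (32.1%) were called higher and 1729 (18.7%) lower.

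The targeted gene and the markers of the genotypes were looked at first. For *RRP6* itself (YOR001W, R64 chromosome XV, 326832 to 329033), 290 and 176 reads were counted in the *rpb1-84 rrp6∆* libraries, against 274 and 591 in *rpb1-84*. The *rrp6∆* libraries had 572 and 548 counts, against 231 and 171 in WT. Reads were thus counted on this row in both strains labelled as deleted, and were not fewer in *rrp6∆* than in WT. Which part of the gene they come from is not shown by a count per row, so the deletion could not be checked here and the strains are named as labelled. In *rpb1-84 rrp6∆* against *rpb1-84* the row was called lower (log2 fold change −1.07, standard error 0.122), a call that was lost with scaling from ORFs only (−0.58), with total counts (−0.75) and without *rpb1-84 rrp6∆* replicate 2 (−0.87). *RPB4*, which encodes the polymerase subunit that is tagged in the *rpb1-84* strain, had 1140 and 866 counts in *rpb1-84 rrp6∆*, against 33 and 59 in *rpb1-84* (log2 fold change 4.25). Among the 4 strains it was low only in the tagged one: *rrp6∆* had 990 and 1018 counts, and WT 606 and 508. *RPO21*, the gene of Rpb1, had 22487 and 17016 counts, against 10357 and 22432 in *rpb1-84*, and its log2 fold change of 0.10 was not called. *TRP1* had 3 and 29 counts in *rpb1-84 rrp6∆*, against 2 and 2 in *rpb1-84*, whose label lists that marker. It was called higher (2.76), but the call rested on *rpb1-84 rrp6∆* replicate 2, without which the value was 0.27. Of the α-specific mating genes, 4 of 4 were tested and none was called in either direction, with summed levels of 750 and 627 normalized CPM, against 1137 and 1136 in *rpb1-84*. The a-specific genes were near 0, at 5.60 and 6.19 normalized CPM in sum, against 19.1 in each *rpb1-84* library. Of the 3 tested all were called lower, *STE2* with 15 and 6 counts, against 26 and 35, *STE6* with 15 and 14, against 18 and 36, and *BAR1* with 3 and 8, against 15 and 45. The part of these markers in other results was not tested.

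The loss of Rrp6 in *rpb1-84* cells went with more reads on noncoding RNA. CUTs took 2.63% and 2.57% of the counts in the *rpb1-84 rrp6∆* libraries, against 0.451% and 0.464% in *rpb1-84*, a ratio of the means of 5.69. NUTs took 7.19% and 7.03%, against 1.21% and 1.17% (ratio 5.96). The sn(o)RNAs took 5.46% and 5.40%, against 0.251% and 0.245%, the largest ratio of the 6 classes at 21.9. For SUTs and XUTs the ratios were smaller. SUTs took 0.918% and 0.921%, against 0.507% in each *rpb1-84* library (ratio 1.81), and XUTs 1.54% in each library, against 0.817% and 0.833% (ratio 1.87). ORFs took 81.1% and 81.2%, against 96.2% and 96.4% (ratio 0.843). In each class the libraries of a strain lay close together and the strains did not overlap, but p = 0.333, found for each class by a two-sided exact permutation test, is the smallest this design allows.

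**Figure D1:**
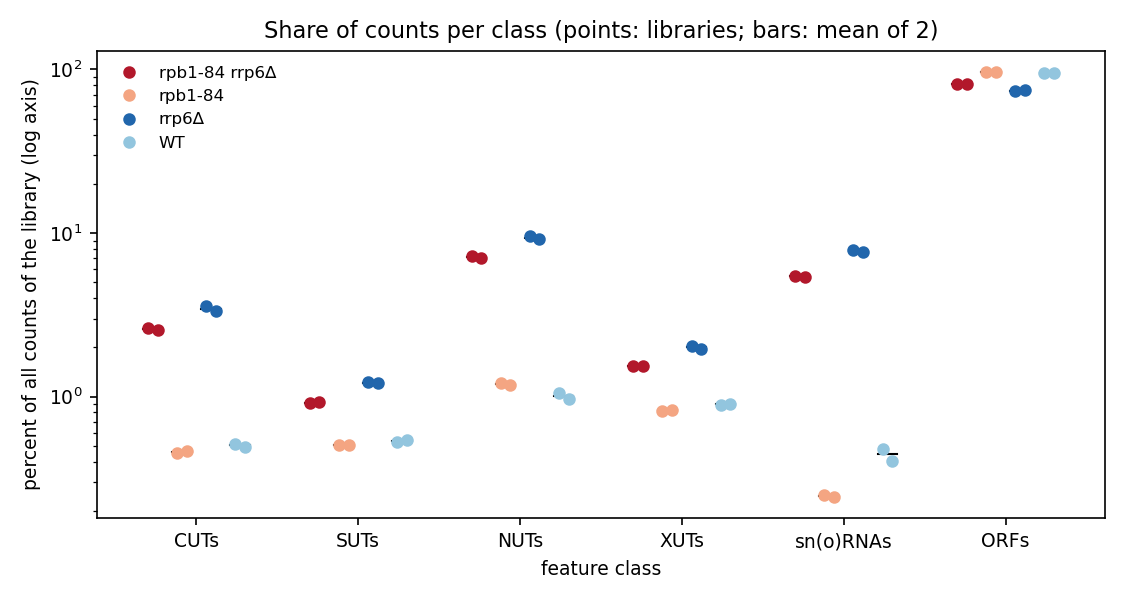
Share of all counts of a library (percent, log axis) taken by each feature class, with 1 point per library and a bar at the mean of 2 for *rpb1-84 rrp6∆*, *rpb1-84*, *rrp6∆* and WT. The *rpb1-84 rrp6∆* libraries lie above the *rpb1-84* libraries for CUTs, SUTs, NUTs, XUTs and sn(o)RNAs (5.43% against 0.248% on average for sn(o)RNAs), and below them for ORFs.

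CUTs rose as a class and over a wide range. Of 925 CUT rows 861 were tested, and 685 of them (74.1% of all CUT rows) were called higher in *rpb1-84 rrp6∆* and 22 lower. The median log2 fold change was 2.57 (quartiles 1.37 and 3.86), beside 0.09 over all features tested, and 2.53 when the 21 called CUTs at 0 in *rpb1-84* are set to the bound that 3 counts allow. The median level of a tested CUT was 12.6 and 11.7 normalized CPM in *rpb1-84 rrp6∆*, against 1.95 and 2.14 in *rpb1-84*. More than 4-fold higher (log2 fold change above 2) were 536 CUTs, and more than 16-fold 187. The rise was not carried by a few transcripts, since the 10 most abundant CUTs took 25.5% of the CUT counts in *rpb1-84 rrp6∆* and 28.3% in *rpb1-84*. Other classes were more concentrated in *rpb1-84 rrp6∆*. The 10 most abundant NUTs took 39.5% of the NUT counts there and 27.6% in *rpb1-84*, and the 10 most abundant sn(o)RNA rows 58.3% and 51.6%.

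Among the CUTs named for the largest rise, CUT567 alone had counts in both strains, with 2028 and 1874 counts in *rpb1-84 rrp6∆*, against 7 and 3 in *rpb1-84* (log2 fold change 8.40, standard error 0.227, adjusted p = 3.02e-27). For CUT567 *rpb1-84* was low beside WT also, which had 211 and 153 counts. The *rrp6∆* libraries had 3197 and 2785, a log2 fold change of 2.80 against WT. CUT596, CUT486 and CUT512 were at 0 in *rpb1-84*. CUT596 had 121 and 82 counts in *rpb1-84 rrp6∆*, which makes it at least 59.6-fold higher, taking 3 counts over the *rpb1-84* group as the floor. CUT486 (74 and 47 counts) was at least 35.5-fold higher and CUT512 (61 and 50 counts) at least 32.6-fold higher. These values cover counting error only. CUT474, which the study pairs with *LYS20* as its sense gene, had 639 and 559 counts, against 14 and 43 in *rpb1-84* (4.22), and CUT638 had 216 and 172 counts, against 2 and 9 (4.93). CUT638 shares every count with NUT1089, so the pair is a single measurement. A few CUTs went the other way. CUT247 had 48 and 41 counts, against 139 and 409 (−2.75), and CUT828 had 64 and 44, against 189 and 449 (−2.72).

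NUTs, which are defined by Nrd1 and overlap CUTs in part, followed CUTs. Of 1526 NUT rows 1382 were tested, with 956 called higher (62.6% of all NUT rows), 49 lower and a median of 1.88. NUT1032 had 124 and 85 counts in *rpb1-84 rrp6∆* and none in *rpb1-84*, at least 61.3-fold higher. Its counts were close to those of CUT596 (121 and 82 in *rpb1-84 rrp6∆*) in every library. Whether both rows count mostly the same reads was not tested. NUT0038 had 100 and 77 counts, against 0 and 1, a ratio of 156 with a 95% counting interval of 27.6 to 6189. NUT0023 (62 and 56 counts, against 0 and 1) had a ratio of 104 (18.3 to 4138) and NUT0287 (172 and 129 counts, against 3 and 0) a ratio of 88.3 (29.9 to 431). The low counts in *rpb1-84* leave these ratios wide open at the top. NUT0864 had 115 and 73 counts, against 310 and 700 (−2.59), and NUT0119 had 32 and 26, against 85 and 215 (−2.52), the largest falls among NUTs with at least 100 counts.

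SUTs and XUTs were called in both directions, fewer of them lower under another scaling. Of 847 SUT rows 649 were tested, with 252 called higher (29.8% of all SUT rows), 77 lower and a median of 0.59. Of 1658 XUT rows 1070 were tested, with 482 called higher (29.1%), 110 lower and a median of 0.83. Scaled from ORFs only, 36 SUTs and 52 XUTs were lower, with medians of 1.08 and 1.32, and by total counts 43 and 64, with medians of 0.92 and 1.16. Beside the 32.1% of all tested features that were called higher, the 38.8% of tested SUTs and 45.0% of tested XUTs stand less far apart than the 79.6% of tested CUTs and 69.2% of tested NUTs. Among SUTs with at least 100 counts SUT298 rose most, with 1170 and 1092 counts, against 8 and 5 in *rpb1-84* (7.24, standard error 0.275), followed by SUT465 with 438 and 315, against 2 and 9 (5.88). SUT298 was low in *rpb1-84* beside WT also, with 82 and 34 counts in WT and 2808 and 3703 in *rrp6∆* (4.58). SUT636 had 94 and 75 counts, against 2 and 1, a ratio of 49.6 (95% counting interval 16.7 to 243), and SUT027 had 58 and 43, against 2 and 0, a ratio of 44.5 (12 to 372). The largest falls, by the same minimum, were at SUT598, with 21 and 8 counts, against 50 and 172 (−3.06), and SUT629, with 25 and 9, against 89 and 147 (−2.99). SUT228, paired in the same way with *PIR1*, did not pass the test, with 208 and 195 counts, against 89 and 229 (0.19, adjusted p = 0.238). SUT240 had 544 and 373, against 104 and 265, and was called higher (1.15), though without *rpb1-84* replicate 1 its value was 1.00, just under the threshold.

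Among XUTs, named by chromosome and strand, 2F161 had 467 and 360 counts, against 3 and 11 in *rpb1-84* (5.68), 15R185 had 217 and 161, against 2 and 4 (5.74), and 8R130 had 143 and 96, against 0 and 4 (5.63). 15R84 had 98 and 100, against 0 and 2, a ratio of 87.2 (95% counting interval 23.8 to 725), and shares every count with NUT1393. 7F380 had 9 and 5 counts, against 38 and 73 (−3.15), and 10R92 had 33 and 18, against 92 and 154 (−2.47), and both were called lower.

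**Figure D2:**
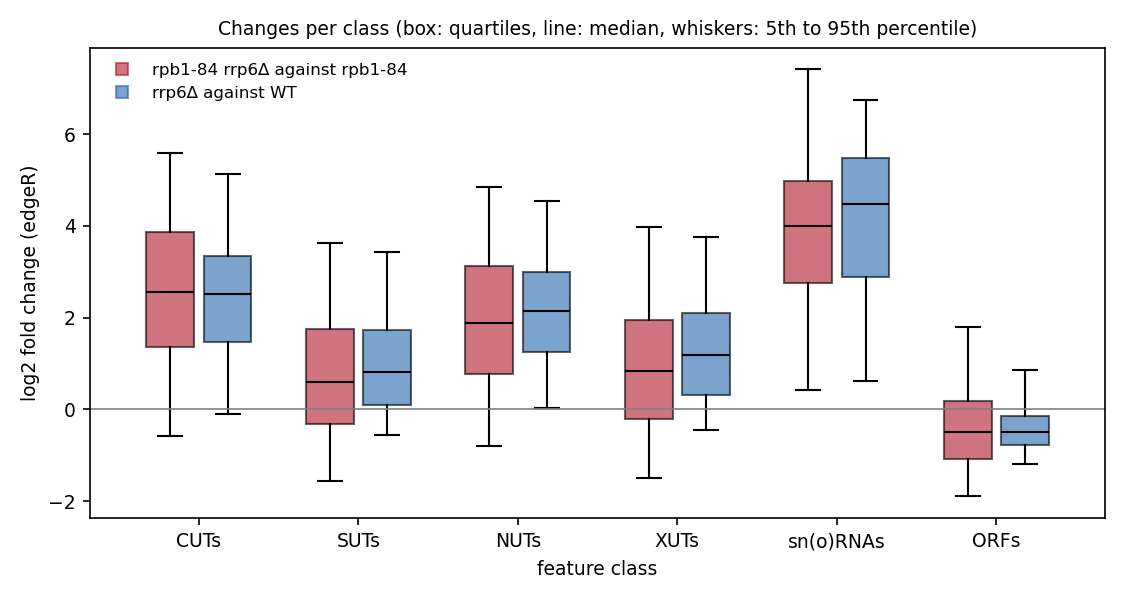
Log2 fold change (vertical axis) over the tested rows of each class in *rpb1-84 rrp6∆* against *rpb1-84* and in *rrp6∆* against WT. Boxes are quartiles, lines medians and whiskers the 5th to 95th percentiles. CUTs, NUTs and sn(o)RNAs lie mostly above 0 (medians 2.57, 1.88 and 3.99 in the first comparison), and ORFs mostly below it (−0.49).

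The sn(o)RNAs rose most. Of 60 rows 59 were tested, and 55 were called higher, 1 lower and 3 in neither direction, with a median log2 fold change of 3.99 (quartiles 2.76 and 4.98). In 57 of the 59 rows both *rpb1-84 rrp6∆* libraries lay above both *rpb1-84* libraries. Over all 9264 tested features this was so in 4237, and the reverse order held in 3842. The median row had 450.3 and 450.2 normalized CPM in *rpb1-84 rrp6∆*, against 30.8 and 29.6 in *rpb1-84*. By kind, 28 of the 32 box C/D rows in this class (guides of ribose methylation) were called higher and 1 lower, 23 of the 23 box H/ACA rows (guides of pseudouridylation) were higher, and so were the 3 spliceosomal snRNA rows, with 1 row of the class in none of these lists. The lists also hold rows counted in other classes, mostly snoRNAs that share a row with an ORF. With those included, 30 of 38 box C/D rows were higher (median 4.08), 25 of 26 box H/ACA rows (median 3.38) and 4 of 4 snRNA rows. Of rows whose snoRNA lies in an intron of a protein-coding gene, and which mostly share their row with the host gene, 3 of 8 were called higher, with a median of 0.49, as against 11 of 12 rows from polycistronic snoRNA clusters, with a median of 3.81.

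The largest rises were at box C/D snoRNAs and at U6. snR48, a methylation guide, had 5963 and 4662 counts, against 7 and 14 in *rpb1-84* (8.78, standard error 0.255). snR78, encoded in a cluster of snoRNAs on chromosome XIII, had 2183 and 1650, against 2 and 9 (8.23). snR6, the U6 spliceosomal RNA made by RNA polymerase III, had 64032 and 56979, against 171 and 180 (8.19). With 11729.5 normalized CPM on average it was the sn(o)RNA row with the most reads. A row that names snR73 of the same cluster and the dubious ORF YMR013W-A had 4482 and 3168, against 11 and 28 (7.42). Of the box H/ACA kind, snR46 had 10331 and 7907 counts, against 121 and 194 (5.65), and snR31 had 8959 and 6617, against 95 and 234 (5.40). The exception was snR4, a box C/D snoRNA, with 192 and 167 counts, against 252 and 1004 in *rpb1-84* (−1.88, standard error 0.173). The *rpb1-84* libraries were the high ones there. snR190 (0.12), snR69 (0.41) and snR47 (0.43) were not called. The gene sequences of the extremes (R64) are shown because they carry the largest rises and the only fall of the class. Capitals mark the box C core TGATGA, where its letters are present, and the last CTGA of box D. Both motifs, searched on the transcribed strand, are found in 44 of the 82 annotated snoRNA and snRNA genes (53.7%).
snR48 (chrVII:609584-609696, plus strand): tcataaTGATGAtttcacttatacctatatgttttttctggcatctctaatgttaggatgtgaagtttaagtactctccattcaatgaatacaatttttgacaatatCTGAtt
snR78 (chrXIII:297278-297364, plus strand): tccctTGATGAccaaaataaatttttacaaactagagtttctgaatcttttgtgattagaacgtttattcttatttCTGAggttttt
snR4 (chrV:424698-424883, plus strand): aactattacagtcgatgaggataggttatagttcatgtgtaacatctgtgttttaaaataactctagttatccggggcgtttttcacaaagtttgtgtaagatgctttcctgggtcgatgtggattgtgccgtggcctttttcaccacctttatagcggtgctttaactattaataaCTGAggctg

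**Figure D3:**
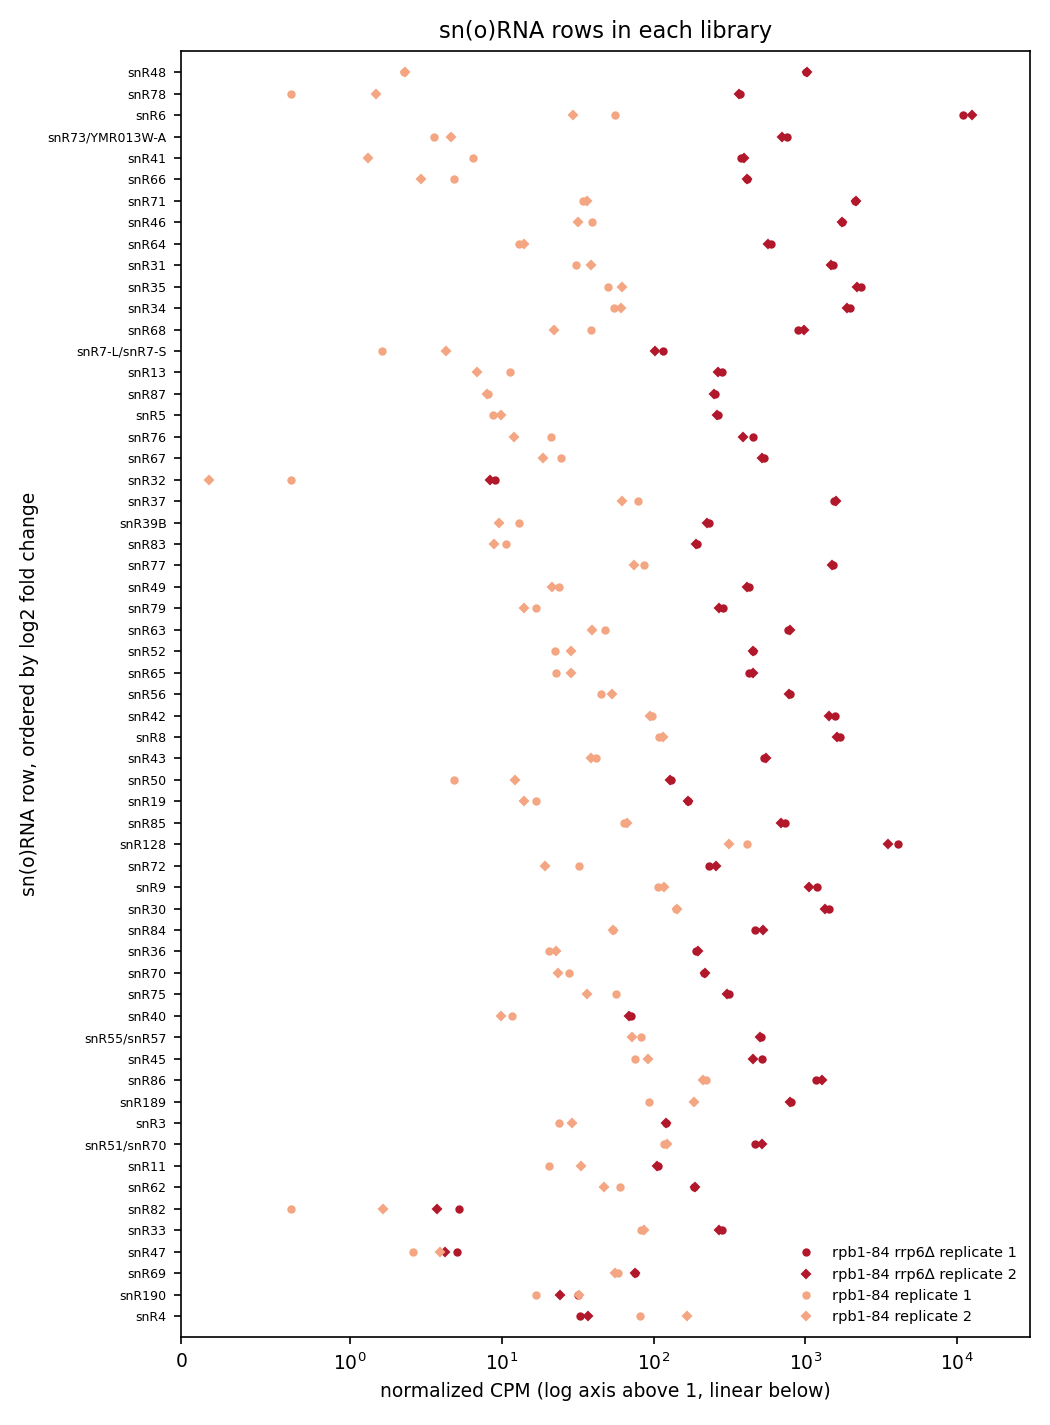
Normalized CPM (horizontal, log axis above 1) of the 59 tested sn(o)RNA rows in each *rpb1-84 rrp6∆* and *rpb1-84* library, ordered by log2 fold change. In 57 rows both *rpb1-84 rrp6∆* points lie to the right of both *rpb1-84* points, and snR4 at the bottom is reversed. Over all 9264 tested features the first order held in 4237.

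Other stable noncoding RNAs, named after their values were seen, were also called higher in *rpb1-84 rrp6∆* against *rpb1-84*. NME1, the RNA of RNase MRP, had 2859 and 1948 counts, against 51 and 146 (4.44). SCR1, the signal recognition particle RNA, had 9656 and 7771, against 1526 and 3158 (1.73). LSR1, the U2 snRNA, had 41211 and 39812, against 13975 and 14425 (1.20), but its *rpb1-84* replicates differed, and without *rpb1-84* replicate 2 the value was 0.80 and was not called. The 4 snRNA rows, LSR1 among them, summed to 4607 and 2417 normalized CPM in *rpb1-84*, against 11483 and 11850 in WT. In that sum *rpb1-84* was low beside WT also, and in *rrp6∆* against WT 2 of the 4 rows were called higher.

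Protein-coding genes next to sn(o)RNA genes rose with them in part. The annotation was searched for ORFs that begin within 1000 bases downstream of a snoRNA or snRNA gene on the same strand, a set chosen after values of some of its members were seen. Of 35 such ORF rows 34 were tested, and 10 (29.4%) were called higher and 5 (14.7%) lower, beside 10.3% and 28.2% of all tested ORFs. The 10 include a row that joins an ORF with its own snoRNA, snR47, and so does not separate their reads. Of the 30 tested ORF rows that lie downstream of a sn(o)RNA gene on the opposite strand, 1 was called higher and 6 lower. Scaled from ORFs only, 12 of the same-strand rows were higher and 1 was lower, of the opposite-strand rows 3 were higher and 4 lower, and of all 5206 tested ORFs 892 (17.1%) were higher and 626 (12%) lower. *HEM4*, which encodes uroporphyrinogen III synthase and begins 211 bases downstream of snR5, had 4351 and 3223 counts in *rpb1-84 rrp6∆*, against 100 and 208 in *rpb1-84* (4.44, standard error 0.121). *TRS31*, a subunit of the TRAPP complex of vesicle transport, begins 280 bases after snR13 and had 4806 and 3642, against 226 and 428 (3.50). The snoRNAs themselves rose as well, snR5 with 1567 and 1184 counts, against 27 and 60 (4.80), and snR13 with 1655 and 1193, against 35 and 42 (5.0). *CTO1*, 194 bases after snR33, had 1887 and 1429, against 151 and 293 (2.71). *FLX1*, a mitochondrial FAD transporter 149 bases after snR68, had 1495 and 1034, against 135 and 247 (2.53). *USE1*, a SNARE protein gene 287 bases after snR82, had 1268 and 913, against 129 and 251 (2.33), while snR82 itself had only 31 and 17 counts, against 2 and 10 (1.80). The groups did not overlap at any of these genes. Such rows are common: among all 5206 tested ORFs both *rpb1-84 rrp6∆* libraries lay above both others in 1273 and below in 3257.

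The remaining ORF rows of this set that were called higher were *UBX6* after snR60 (2.51), *RPL7A* after snR39B (2.51), *GAL11*, a Mediator subunit, after snR81 (1.21, and 0.76 with no call without *rpb1-84* replicate 2), a row that joins *RGT1*, a glucose-responsive repressor 729 bases after snR69, with *AIM26* (4.09), and a row that joins YDR042C with snR47 (3.65). The separate rows of snR69 (0.41) and snR47 (0.43) were not called, so these ORF rows rose without them. Lower was for example *NUP188*, a nuclear pore protein gene 219 bases after snR85, with 401 and 280 counts, against 627 and 1468 (−1.78). *YTM1*, a ribosome biogenesis gene 292 bases after snR8, had 645 and 439, against 620 and 1200 (−0.94, not called). A count per row does not show where a read's transcript began, so whether these reads belong to longer transcripts of the sn(o)RNA genes was not tested. The other rows that were not called include *ERG25*, 868 bases after snR48 (0.40), although snR48 itself had the largest log2 fold change of the sn(o)RNA rows.

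The first 100 bases downstream of 7 of these snoRNA genes are shown (R64, transcribed strand), chosen after the values were seen as examples with values given above: snR5, snR13, snR33, snR68 and snR82, whose downstream ORF was called higher, snR8, whose ORF was not called, and snR85, whose ORF was called lower. Capitals mark GTAA and GTAG, short motifs bound by Nrd1, and TCTT, the core of the Nab3 motif.
snR5 (chrXV:842607-842706, plus strand): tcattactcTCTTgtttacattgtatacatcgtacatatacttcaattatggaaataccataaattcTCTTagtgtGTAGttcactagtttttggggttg
snR13 (chrIV:1403043-1403142, plus strand): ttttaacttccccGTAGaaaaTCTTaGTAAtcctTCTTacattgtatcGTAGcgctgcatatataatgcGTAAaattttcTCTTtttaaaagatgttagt
snR33 (chrIII:142264-142363, minus strand): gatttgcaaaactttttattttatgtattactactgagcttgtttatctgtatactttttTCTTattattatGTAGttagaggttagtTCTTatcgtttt
snR68 (chrIX:97247-97346, plus strand): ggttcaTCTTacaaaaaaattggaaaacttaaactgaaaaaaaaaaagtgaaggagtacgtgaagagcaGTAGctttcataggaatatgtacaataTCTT
snR82 (chrVII:317056-317155, plus strand): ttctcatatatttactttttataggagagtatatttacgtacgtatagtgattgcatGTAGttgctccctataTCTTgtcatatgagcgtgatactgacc
snR8 (chrXV:832522-832621, plus strand): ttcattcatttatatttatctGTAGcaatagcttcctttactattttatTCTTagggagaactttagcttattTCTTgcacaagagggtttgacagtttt
snR85 (chrXIII:67668-67767, minus strand): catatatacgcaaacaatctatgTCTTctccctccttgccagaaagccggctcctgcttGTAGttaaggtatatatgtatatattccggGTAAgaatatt

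The 7 windows shown all held both kinds of motif, with snR13 holding the most, 4 of GTAA or GTAG and 3 of TCTT. Over the 74 sn(o)RNA genes outside protein-coding genes, 46 such windows (62.2%) held GTAA or GTAG together with TCTT, and 18.9% did on the other strand. Over the windows downstream of the 6021 protein-coding genes these shares were 25.3% and 23.5%. Within the same-strand set, both motifs were in 10 of the 10 windows before an ORF row called higher, 2 of 5 before a row called lower and 14 of 19 before a row not called. These are counts with no test, and a match is a description of letters, not of binding.

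**Figure D4:**
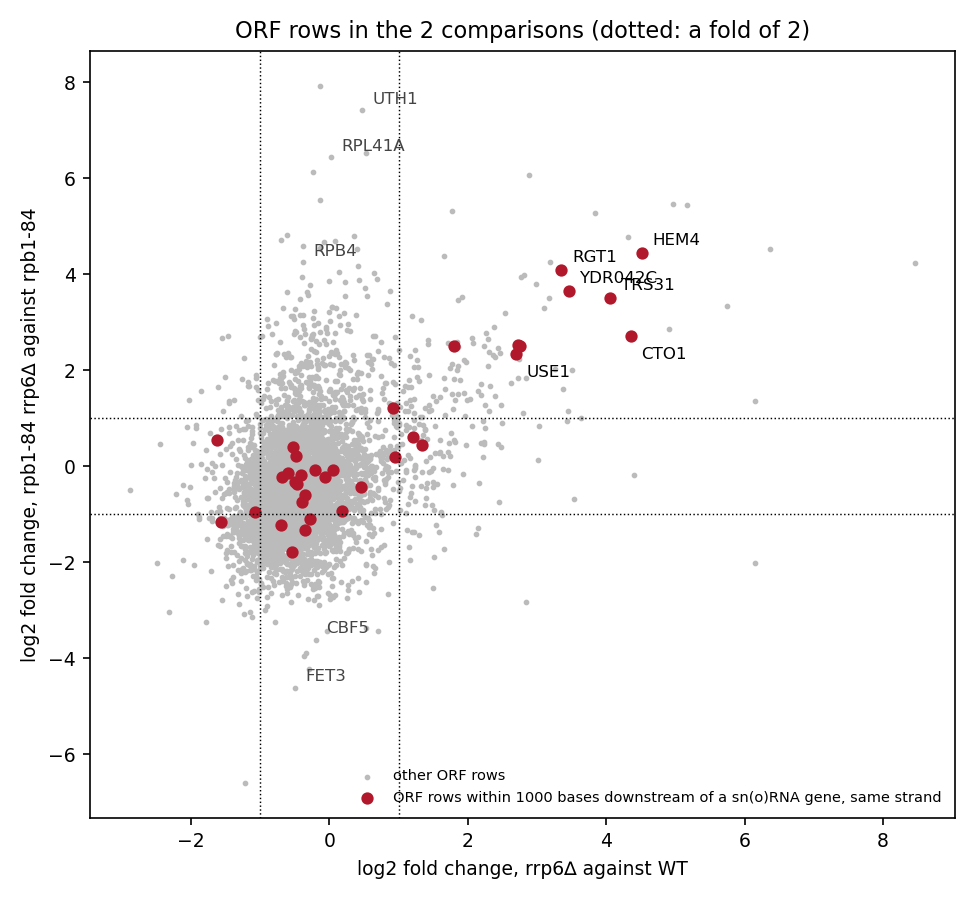
Log2 fold change of each tested ORF row in *rpb1-84 rrp6∆* against *rpb1-84* (vertical) and in *rrp6∆* against WT (horizontal), with ORF rows downstream of a sn(o)RNA gene on the same strand in red. *HEM4* and *TRS31* are high on both axes (4.44 and 3.50 on the vertical one), while *UTH1*, *RPL41A* and *RPB4* are high on the vertical axis only.

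Over all ORFs, more rows were called lower than higher, and this balance depended on the scaling. Of 5376 ORF rows 5206 were tested, with 537 called higher, 1468 lower and a median log2 fold change of −0.49. When scaling factors came from ORFs only, 892 rows rose and 626 fell (median 0.0014), and total counts gave 752 and 845. These scalings move the median of all features by 0.49 and 0.33. Among ORF rows with at least 100 counts, the largest rises were at *UTH1*, a cell wall and mitochondrial protein gene, with 7676 and 6379 counts in *rpb1-84 rrp6∆*, against 28 and 44 in *rpb1-84* (7.42, standard error 0.148), and at *RPL41A*, a ribosomal protein gene, with 32281 and 26959, against 255 and 326 (6.44). *CWP2*, a cell wall mannoprotein gene, had 331 and 220, against 6 and 4 (5.55). In each of these genes the *rpb1-84* libraries were low beside every other strain. *UTH1* had 11333 and 10053 counts in *rrp6∆*, against 3528 and 2982 in WT, and *RPL41A* had 38433 and 33874, against 16039 and 13943. In 449 of the 537 ORF rows called higher (83.6%), both *rpb1-84* libraries lay below all 6 libraries of *rpb1-84 rrp6∆*, *rrp6∆* and WT. This was so in 322 of the 685 CUTs called higher (47.0%). In 1335 of the 1468 ORF rows called lower (90.9%) both *rpb1-84* libraries lay above those 6. The call itself sets part of this order, and its share over all tested rows was not counted. Over all 5206 tested ORFs both *rpb1-84* libraries lay below both *rpb1-84 rrp6∆* libraries in 1273 and above them in 3257. A further row, which joins YCR006C with a proline tRNA gene, had 6600 and 5584 counts, against 107 and 129 (5.47), and was high in *rrp6∆* also (6758 and 5925, against 135 and 39 in WT).

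The 6 ORF rows with the largest falls, again with at least 100 counts, were single genes of different function. *FET3*, the ferroxidase of high-affinity iron uptake, had 24 and 25 counts, against 292 and 811 in *rpb1-84* (−4.62, standard error 0.186). *CBF5*, the pseudouridine synthase of box H/ACA snoRNPs, had 2090 and 1675, against 12652 and 28983 (−3.61). *RGI1*, induced in respiratory growth, had 241 and 176, against 1617 and 4364 (−3.96). At *CBF5* and *RGI1* the *rpb1-84* libraries were the high ones, since *CBF5* had 2043 and 2634 counts in *rrp6∆* and 1205 and 1062 in WT. *FET3* was low in *rpb1-84 rrp6∆* alone, with 609 and 600 in *rrp6∆* and 376 and 349 in WT. *MNN4*, of cell wall mannan phosphorylation (269 and 269 counts, against 2152 and 5170, −3.89), *CPP3* (6 and 4, against 57 and 111, −4.22) and *ANB1*, the hypoxic form of eIF5A (9 and 11, against 73 and 117, −3.43), complete the list.

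The genes whose products act with Rrp6 are given next, beside the 10.3% of all tested ORFs that were higher and the 28.2% that were lower, and the counts in these short lists were mostly near those shares. Of the 10 core exosome genes 1 was called higher, *RRP45* (14 and 24 counts, against 4 and 6, 1.73), and 3 lower, with *MTR3* at −2.13 and the catalytic subunit *DIS3* at −1.19, and the median was −0.26. With scaling from ORFs only that median was 0.23 and *DIS3* was not called (−0.70). Of the 8 genes of Rrp6 cofactors and TRAMP, *TRF5*, a poly(A) polymerase of TRAMP, was called higher (88 and 86, against 20 and 15, 2.11), while *PAP2*, its paralog, was lower (239 and 195, against 488 and 996, −1.95), as were *LRP1*, which encodes the partner that stabilises Rrp6 (−1.53), and *AIR1* (−1.41, and −0.92 with no call when scaled from ORFs only). Of the 14 NNS and linked termination genes 4 were called higher and 2 lower. *RAI1* had 141 and 101 counts, against 17 and 13 (2.80), and *GLC7*, a phosphatase of the cleavage and polyadenylation factor, had 1612 and 1334, against 140 and 248 (2.74). *NRD1*, which is known to be controlled through its own termination pathway, had 1305 and 982, against 241 and 689 (1.16), and was not called without *rpb1-84* replicate 1 (0.94). *NAB3* (0.33) and *SEN1* (0.07) were not called, and *RTR1*, the CTD phosphatase gene, was lower (−1.27), but not with scaling from ORFs only (−0.77) or total counts (−0.94). Of 12 RNA polymerase II subunit genes, *RPB4* and *RPB7* (26 and 15 counts, against 0 and 8, 2.15) were higher and 3 lower, among them *RPB11* (−1.81) and *RPB3* (−1.44, and −0.95 with no call when scaled from ORFs only). The *RPB4* row, as given above, was low only in the *rpb1-84* strain, where that gene is tagged, and *RPB7* had few counts.

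**Figure D5:**
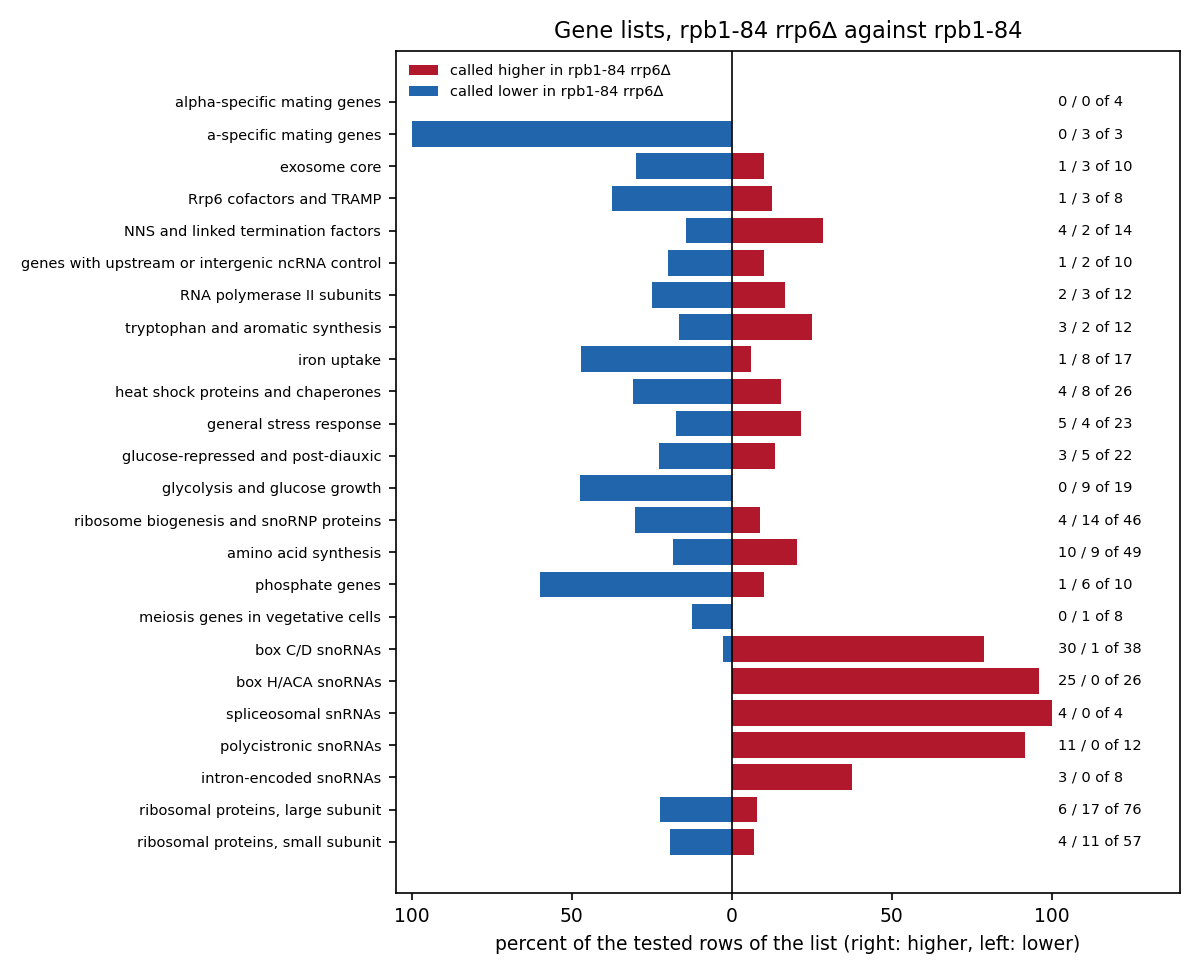
Percent of the tested rows of each gene list called higher (right) or lower (left) in *rpb1-84 rrp6∆* against *rpb1-84*, with the numbers beside each bar. The sn(o)RNA lists lie to the right (25 of 26 box H/ACA rows higher), and glycolysis (9 of 19 lower) and phosphate genes (6 of 10 lower) to the left.

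The other lists of genes are described by their counts, beside 10.3% higher and 28.2% lower over all tested ORFs. Of 19 genes of glycolysis and glucose growth none was called higher and 9 were lower (median −0.90), and with scaling from ORFs only 5 were lower (−0.41). *TDH1*, a glyceraldehyde-3-phosphate dehydrogenase gene, had 625 and 485 counts, against 2903 and 6556 (−3.24), and *HXT4*, a hexose transporter gene, had 121 and 101, against 352 and 833 (−2.57). Of 17 iron uptake genes 8 were lower and 1 higher (median −0.94), and scaled from ORFs only or by total counts 5 were lower and 3 higher, the lower ones in the first count including *FET3* and the siderophore transporter gene *SIT1* (−2.45). Of 10 tested phosphate genes 6 were lower, such as *PHO84* (9 and 10 counts, against 22 and 56, −2.19), and *SPL2* was higher (22 and 17, against 2 and 0, a ratio of 17.2 with a 95% counting interval of 4.44 to 147). These 3 lists kept a median below 0 under each scaling tried. So did the lists of ribosome biogenesis, general stress, Rrp6 cofactors with TRAMP, and both kinds of mating genes. With scaling from ORFs only, however, the medians of ribosome biogenesis (−0.12) and general stress (−0.04) lay close to that of all tested ORFs (0.0014).

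Ribosome biogenesis and snoRNP protein genes had 14 of 46 called lower and 4 higher (median −0.61, and 11 and 9 when scaled from ORFs only). *NOP56*, of the box C/D snoRNP core, had 2586 and 2032 counts, against 8617 and 17920 (−2.69), and *SSF1*, of large subunit maturation, had 511 and 438, against 41 and 89 (2.69). At *NOP56*, as at *CBF5*, the *rpb1-84* libraries were the high ones, and in *rrp6∆* against WT neither was called (*CBF5* −0.19, *NOP56* −0.45). Ribosomal protein genes gave 6 higher and 17 lower of 76 for the large subunit and 4 higher and 11 lower of 57 for the small one, with medians of −0.34 and −0.33 that turned to 0.15 and 0.16 with scaling from ORFs only. Amino acid synthesis genes gave 10 higher and 9 lower of 49 (19 and 2 when scaled from ORFs only). *LYS1*, of lysine synthesis, had 3266 and 3185, against 321 and 575 (2.67), *MET3*, ATP sulfurylase, had 560 and 405, against 29 and 47 (3.47), and *MET14*, of the same sulfate pathway, was lower (41 and 36, against 105 and 219, −2.25).

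Among tryptophan and aromatic synthesis genes 3 of 12 were higher, with *TRP5* at 376 and 294 counts, against 45 and 45 (2.68), and 2 lower. Heat shock and chaperone genes had 4 higher, such as *HSP78* (183 and 198, against 25 and 41, 2.35), and 8 lower of 26, general stress genes 5 higher and 4 lower of 23, and glucose-repressed genes 3 higher and 5 lower of 22, such as *MDH2* (43 and 27, against 187 and 331, −3.08). Of 8 tested meiosis genes 1 was lower, *RED1* (−1.12), and of 10 genes with an upstream or intergenic noncoding transcript 1 was higher and 2 lower. *LYS20*, of lysine synthesis, had 1263 and 923 counts, against 210 and 396 (1.66), and *PIR1*, a cell wall protein gene, had 638 and 475, against 908 and 1552 (−1.36, and −0.87 with no call when scaled from ORFs only), so that these genes moved apart. The medians of the tryptophan, heat shock, glucose-repressed and meiosis lists were below 0 and turned above 0 with scaling from ORFs only.

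The change was then set beside that of *rrp6∆* against WT, taken from the same fit, to ask which of it was shared with cells that carry normal *RPB1*. In *rrp6∆* against WT 2960 features (32.0%) were called higher and 626 (6.76%) lower. Of the 685 CUTs called higher in *rpb1-84 rrp6∆*, 634 (92.6%) were also called higher in *rrp6∆*, which is 88.9% of the 713 called there. For NUTs the shared 890 were 93.1% of the calls in *rpb1-84 rrp6∆* and 80.5% of those in *rrp6∆*, and for sn(o)RNAs the shared 53 were 96.4% and 98.1%. For SUTs (74.2% and 65.6%) and XUTs (79.9% and 67.3%) the shares were smaller. For ORFs the 111 shared rows were 20.7% of the 537 called in *rpb1-84 rrp6∆* and 50.9% of the 218 called in *rrp6∆*. The first share of each pair stands beside that of all tested rows of the class called higher in *rrp6∆* against WT. That was 82.8% for CUTs, 80.0% for NUTs, 91.5% for sn(o)RNAs, 43.9% for SUTs, 53.5% for XUTs and 4.19% for ORFs. Over all features the shared calls were 76.2% and 76.7%. Of the 1468 ORFs called lower 259 (17.6%) were called lower in *rrp6∆* too, beside 11.5% of all tested ORFs. *HEM4* (4.52 in *rrp6∆* against WT), *TRS31* (4.06) and *CTO1* (4.36) were among the shared ORFs, with 9 of the 10 ORF rows downstream of a sn(o)RNA gene, all but *GAL11*, whose value in *rrp6∆* was 0.92.

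The difference between the changes was tested as an interaction in the same model, and it is confounded with the experiment in the same way. Of all tested features 1205 (13.0%) had a higher change in *rpb1-84* cells and 1481 (16.0%) a lower one. CUTs were split, with 142 higher and 113 lower. For SUTs (74 higher, 138 lower), NUTs (138 and 259), XUTs (101 and 218) and sn(o)RNAs (12 and 19) the lower ones were more, and by DESeq2's Wald test, which has fewer of both, this difference was smaller for SUTs (61 and 86) and XUTs (76 and 143). ORFs were split evenly (734 and 725). The median difference was 0.09 for CUTs, −0.31 for SUTs, −0.23 for NUTs, −0.35 for XUTs and −0.50 for sn(o)RNAs. Among the CUTs called higher in both comparisons, the median log2 fold change was 3.27 in *rpb1-84 rrp6∆* against *rpb1-84* and 2.91 in *rrp6∆* against WT. For sn(o)RNAs it was 4.18 and 4.81, for SUTs 2.32 and 2.14, for NUTs 2.75 and 2.67, for XUTs 2.36 and 2.31, and for ORFs 2.14 and 1.97. Of these shared rows the interaction was called as a larger rise in *rpb1-84* cells in 106 CUTs and 10 sn(o)RNAs, and as a smaller one in 56 CUTs and 18 sn(o)RNAs. Among shared rows of the other classes, larger rises outnumbered smaller ones. They numbered 24 against 13 for SUTs, 111 against 79 for NUTs, 42 against 26 for XUTs and 11 against 6 for ORFs.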

How the data were processed

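Total RNA of 10 yeast cultures was sequenced with QuantSeq 3′ libraries. The deposited values are raw counts per feature: the authors checked reads with FastQC, clipped adapters, mapped them to R64 using HISAT2 and took counts per feature from featureCounts. Versions, strand setting and treatment of overlapping features are not given in the sources used here. Features were sorted into classes by their identifiers, those written as chromosome, F or R and a number being XUTs. Of the 5376 ORF rows, 286 name several genes.

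Counts of the 8 libraries of *rpb1-84 rrp6∆*, *rpb1-84*, *rrp6∆* and WT were fitted with edgeR 4.0.16 (R 4.3.3; TMM over all features, filterByExpr, quasi-likelihood F test, Benjamini-Hochberg over 9264 features). The biological coefficient of variation was 0.0682. Normalized CPM use these factors. *rpb4∆*, of another background, was left out. The fit was tested on simulated counts with known changes in a small set of features of *rpb1-84 rrp6∆* only. Such counts do not test the scaling under changes as broad as those seen here. Shares, intervals and permutation tests used Python 3.11.15 with scipy 1.17.1. Intervals and floors (3 counts) cover counting error only. Sequences and gene positions are from the RefSeq R64 assembly and annotation.

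The features named are, per class, the 4 with the largest rise and the 2 (ORFs 6) with the largest fall among those called, not overlapping and with at least 100 counts, the genotype's genes, transcripts the study names, members of gene lists with the largest changes, and the largest interactions. Same-numbered replicates did not deviate together (r = 0.00818 over 6101 features), so no pairing was assumed. Features, lists and tests were chosen with earlier results of these data known. Other scalings, filters, DESeq2 1.42.0, a replicate block, fits of 4 libraries and each library left out in turn were tried.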

Additional observations from a re-analysis of the deposited data

Results flagged for a closer look

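The change in *rpb1-84 rrp6∆* against *rpb1-84* differed from that in *rrp6∆* against WT, by the interaction test, in 142 CUTs upwards and 113 downwards, 74 SUTs upwards and 138 downwards, 138 NUTs upwards and 259 downwards, 101 XUTs upwards and 218 downwards, 12 sn(o)RNAs upwards and 19 downwards, and 734 ORFs upwards and 725 downwards. By DESeq2's Wald test 86 SUTs and 143 XUTs were downwards.

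Of the pair of rows with the largest difference in each class, those with counts in every strain were *UTH1* (6.94 on the log2 scale), snR4 (−4.29) and snR128 (the U14 snoRNA, −3.42). snR128 had 23990 and 15722 counts in *rpb1-84 rrp6∆*, against 1269 and 1911 in *rpb1-84*, and 33444 and 23975 in *rrp6∆*, against 186 and 34 in WT. snR4 had 236 and 229 counts in *rrp6∆*, against 19 and 18 in WT, so that it was higher there and lower in *rpb1-84 rrp6∆*.

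In the other rows picked in this way a strain had no counts, so the size of the fitted value rests on the prior count of the model and is no bound. With *rpb1-84* at 0, these were VPS51 (8.07), SUT106 (7.99), SUT790 (6.85), NUT0237 (6.98), NUT1032 (6.33) and 11F272 (6.14). With WT at 0, they were CUT308 (−7.02), CUT338 (−7.16) and 16F227 (−7.27). *VPS51*, of the GARP tethering complex, had 33 and 33 counts in *rpb1-84 rrp6∆*, 52 and 38 in *rrp6∆* and 21 and 21 in WT.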

How the results depend on the processing

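Counts called higher in *rpb1-84 rrp6∆* moved by less than 1.5 times under every alternative except ORFs higher with factors from ORFs only (892). With those factors the counts lower were 5 CUTs, 36 SUTs, 20 NUTs, 52 XUTs and 626 ORFs, and with total counts 7, 43, 27, 64 and 845. By DESeq2's Wald test, changes smaller in *rpb1-84* cells numbered 86 SUTs and 143 XUTs.

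Median log2 fold changes with factors from ORFs only were 3.06 (CUTs), 1.08 (SUTs), 2.37 (NUTs), 1.32 (XUTs), 4.48 (sn(o)RNAs) and 0.0014 (ORFs), and with total counts 2.89, 0.92, 2.21, 1.16, 4.32 and −0.16. Without the filter on low counts CUTs, SUTs, NUTs and XUTs had 2.51, 0.55, 1.83 and 0.69, and by DESeq2 2.50, 0.51, 1.82 and 0.69. With the 4 libraries alone CUTs, SUTs and NUTs had 2.68, 0.58 and 1.95. SUTs had 0.57 with DESeq2 size factors and 0.58 without rows of identical counts. With single libraries left out the medians ranged over 2.56 to 2.72 (CUTs), 0.55 to 0.68 (SUTs), 1.89 to 1.95 (NUTs), 0.76 to 0.89 (XUTs), 3.95 to 4.07 (sn(o)RNAs) and −0.50 to −0.44 (ORFs).

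The ratio of shares, taken of counts without sn(o)RNAs, was 6.0 for CUTs, 1.91 for SUTs, 6.29 for NUTs, 1.97 for XUTs and 0.889 for ORFs, and, taken relative to ORF counts, 6.75, 2.15, 7.07 and 2.22, and 26.0 for sn(o)RNAs. The sign turned for *SEN1* (−0.0023 without *rpb1-84* replicate 1 and 0.14 without *rpb1-84* replicate 2), *MF(ALPHA)1* (0.015 without *rpb1-84 rrp6∆* replicate 2 and −1.86 without *rpb1-84 rrp6∆* replicate 1) and *STE3* (0.15 with factors from ORFs only), none of which was called with all libraries. Causes of these shifts were not tested.

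With the replicate number as a block 681 CUTs, 247 SUTs, 956 NUTs, 476 XUTs, 55 sn(o)RNAs and 536 ORFs were higher, and no named call changed. The interaction could not be fitted with 4 libraries. Depth limits rows that are at or near 0 in *rpb1-84*.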
